A study of Homo sapiens with 8 samples.

Results

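Lysosomes are acidic compartments in which hydrolases break down proteins, lipids and sugar chains, and autophagy is the route by which cytoplasmic material is wrapped in a double membrane and delivered to them. Transcription factors of the MiT/TFE family, TFEB, TFE3 and MITF, bind a short palindromic motif in the promoters of many lysosomal and autophagy genes and raise their transcription when they enter the nucleus. The V-ATPase pumps protons into the lysosome, and most cathepsins work best at its low pH. The lipidated ATG8 proteins decorate the autophagosome and hold the receptors that carry cargo.

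The 40 lysosome and autophagy genes described here were chosen by symbol from a table of 17649 genes. The rule that selects them uses no measured value, though the list was drawn up with earlier results of these data known. They comprise 5 lysosomal membrane proteins, 8 cathepsins with the peptidase TPP1, 8 glycosidases and lipid-handling proteins, 3 V-ATPase subunits, 3 MiT/TFE factors, 2 autophagy receptors, 4 ATG8 proteins and 6 genes of autophagosome initiation and conjugation. All 40 were in the table and all 40 averaged 0.5 CPM or more (CPM, the reads of a gene relative to the size of its library).

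RNA-Seq was performed on MDA-MB-231 cells, an established human breast cancer line that lacks the estrogen receptor. The 4 control libraries came from cells given the vehicle PBS, and the other 4 from cells exposed to 1 μM carboxymethyllysine (CML, written NCML in the sample titles) for 48 h, both in low-glucose medium. CML is a lysine modified by reactive sugar products, and the comparison asked how this product changes gene expression in these cells. The groups share 1 cell line, and the labels do not say whether libraries of a group came from separate cultures, so the p-values measure the spread between these libraries. In bulk RNA, a change in the number of cells that express a gene and a change in RNA per cell cannot be told apart.

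The steps between the deposited values correspond to between 16161802 and 18954732 estimated reads per library, so that 1 read was worth 0.0535 to 0.0622 CPM. The line's mesenchymal markers were high, with control means of 4068 CPM for VIM and 832 CPM for CD44, while of the genes known to be low in this kind of line PGR did not exceed 0.114 CPM and CDH1 0.954 CPM, but ERBB2 averaged 49.5 CPM and EPCAM 14.2 CPM in control. ESR1 was not in the table. Among markers of immune and endothelial cells, PTPRC reached at most 0.650 CPM, VWF 0.747, CD14 1.73 and PECAM1 3.84 CPM. Among fibroblast markers COL1A1 averaged 10.5 CPM in control, LUM reached 1.71 CPM, COL3A1 reached 3.35 CPM in CML replicate 3, and COL1A2 and DCN did not exceed 0.249 and 0.0605 CPM. In limma on log2(CPM + 1), 158 of 17649 genes passed a false discovery rate (FDR) of 0.3, which is 0.895% of them. The count ranged from 20 without CML replicate 2 to 690 without control replicate 4. Of these, 119 were higher and 39 lower with CML, and after quantile normalization 90 were higher and 54 lower. No gene passed an FDR of 0.05, while 1352 had an unadjusted p under 0.05 and the comparison without moderated variances called 97 at an FDR of 0.3.

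In both groups the library numbered 4 deviated from the others in a way that ran against the GC content of the transcripts. Control replicate 4 was the highest or lowest of its group in 28 of the 40 genes and CML replicate 4 in 24, but control replicate 1 was so in 25 and CML replicate 2 in 23. Across the 40 genes, the difference between control replicate 4 and the mean of the other 3 control libraries had a Spearman correlation of -0.812 with GC content, and CML replicate 4 had one of -0.723. It was positive, at 0.72, in control replicate 1, and in the other 5 libraries it lay between -0.147 and 0.504. Control replicates 1 and 4 each enter the mean that the other is compared with. Their correlations therefore depend on each other and do not show which of them departs. The trend was not particular to the 40 genes. Over 12928 genes the correlation was -0.591 in control replicate 4, -0.533 in CML replicate 4 and 0.506 in control replicate 1. Of the 11 genes with at least 55% GC, 11 were below the mean of the other 3 libraries of their group in control replicate 4 and 10 in CML replicate 4, with median deviations of -0.077 and -0.091 (log2). Of the 13 genes under 45% GC, 0 and 3 were below, with medians of 0.111 and 0.045. The points share their libraries and the correlations are given as a description. For CTSD, CTSS, GUSB, MITF, GABARAPL2 and ULK1, values without both libraries numbered 4 are therefore given below as well.

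**Figure D1:**
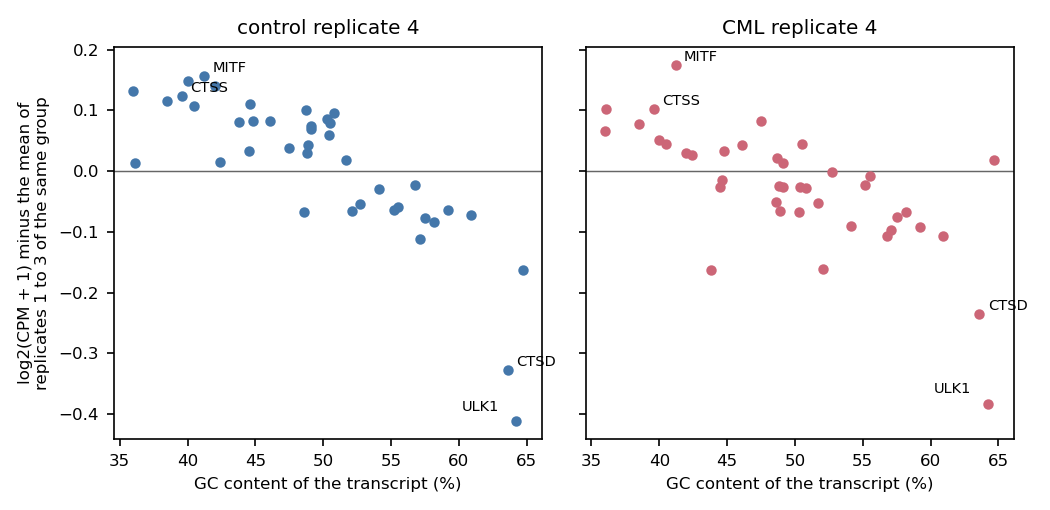
Deviation of replicate 4 from the mean of replicates 1 to 3 of its group, on the log2(CPM + 1) scale, against transcript GC content (%), in control (left) and CML (right). Each point is 1 of the 40 genes. The GC-rich genes CTSD and ULK1 lie lowest in both panels, while MITF, at 41.2% GC, lies above 0 in both.

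Because MiT/TFE factors act through promoter motifs, the RefSeq promoters of these genes (GRCh38.p14, 250 bases before to 50 after each start) were searched on both strands. A promoter was found for 33 of the 40 genes. The palindrome TCACGTGA, the core of the motif known in lysosomal genes, was present in 4 of the 33 (12.1%), against 1.18% of 27305 genes with a promoter in the same table. The shorter CACGTG box, which lies within it, was present in 6 of the 33 (18.2%), against 8.77% of all genes. The windows below show the 6 genes that hold either form, with 1 motif of each in capitals, written 5′ to 3′ on the gene's own strand. A match is a description of the sequence and not a bound site.

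ATP6V0D1, chr16:67481194-67481233, minus strand: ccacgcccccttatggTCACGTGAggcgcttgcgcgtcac
CTSA, chr20:45891293-45891332, plus strand: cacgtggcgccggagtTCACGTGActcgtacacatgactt
LAMP1, chr13:113297194-113297233, plus strand: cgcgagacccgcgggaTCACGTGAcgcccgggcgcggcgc
MCOLN1, chr19:7522566-7522605, plus strand: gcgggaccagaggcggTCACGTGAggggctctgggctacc
CTSD, chr11:1763953-1763990, minus strand: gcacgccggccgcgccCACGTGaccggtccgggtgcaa
NEU1, chr6:31862926-31862963, minus strand: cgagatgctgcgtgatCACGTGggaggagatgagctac

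The CTSA window also begins with a second CACGTG box, left in lower case. LAMP1 was the richest of them, with 6 CACGTG boxes in its promoter, and CTSA and MCOLN1 each had 2. The first base of the motif lay at -60 in ATP6V0D1, -42 in MCOLN1, -29 in LAMP1 and -26 in CTSA, counted from the start site. The log2 fold changes (CML minus control) of these 4 genes ran from -0.018 to 0.007 with a median of -0.009, and that of the 29 genes with a promoter lacking the 8 letters was 0.01. Among other genes of the pathway, 14 of 128 with a promoter held TCACGTGA (10.9%).

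In control cells the 40 genes spanned a wide range. The order given here is on the scale of CPM per kilobase of transcript, which allows levels of different genes to be compared. CTSD, the aspartic protease cathepsin D, was highest at 581 CPM per kb. PSAP, the precursor of the saposins that help degrade sphingolipids, followed at 544, and the receptor SQSTM1 (p62) at 421. The control libraries of CTSD and PSAP overlapped on this scale. The next in order were NPC2, which carries cholesterol inside the lysosome, at 190 CPM per kb, GABARAP at 159 and NPC1, the membrane partner of NPC2, at 153. Percentiles were taken among genes that averaged 0.5 CPM or more and had a known transcript length. CTSD and PSAP both lay at the 99.3 percentile, while TFEB, the lowest of the 40 at 1.51 CPM per kb, lay at the 21.0 percentile.

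**Figure D2:**
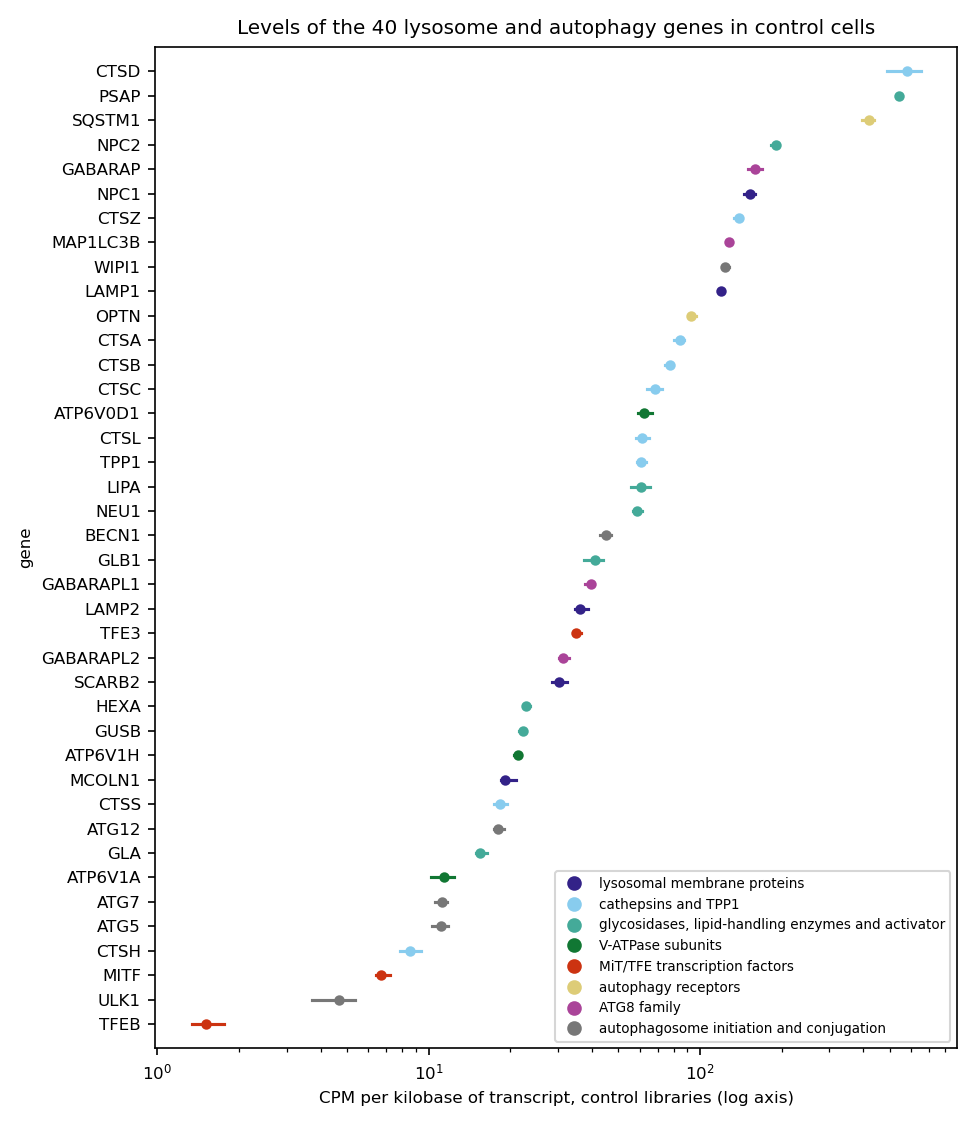
Level of each of the 40 genes in control cells, in CPM per kilobase of transcript on a log axis. Points are means of 4 control libraries, bars run from the lowest to the highest library, and colors mark the role. CTSD, PSAP and SQSTM1 lie at the top and MITF, ULK1 and TFEB at the bottom.

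With CML, none of the 40 genes passed the FDR of 0.3, against 0.895% of all genes, and the smallest adjusted p was 0.626 (limma with Benjamini-Hochberg adjustment over 17649 genes). At an unadjusted p under 0.05 there were 2 genes, MITF and GUSB, or 5.0% of the 40, against 7.66% of all genes. The comparison without moderated variances also called 0 of the 40, with 0 at an unadjusted p under 0.05. In none of the 40 did the 4 CML libraries lie entirely above or below the 4 control libraries, which was the case for 4.26% of the 14090 genes averaging 0.5 CPM or more.

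The differences were small as well as uncalled. The median log2 fold change of the 40 genes was 0.009, against 0.014 for genes averaging 0.5 CPM or more, and the values ran from -0.122 (TFEB) to 0.169 (ULK1). The log2 fold change was above 0 in 25 genes (62.5%) and below 0 in 15, against 57.7% above 0 among genes averaging 0.5 CPM or more. The number above 0 became 20 after centring on the library median and 17 after quantile normalization. The median size of the change was 0.0265 (log2), against 0.0343 in the 3443 genes within the members' middle range of CPM. For 36 of the 40 genes (90.0%) the 95% interval of the change lay within 20% either way (1.2-fold up or down), against 59.3% of genes averaging 0.5 CPM or more. The exceptions were CTSD, MITF, TFEB and ULK1. The 59.3% was not matched for level: it covers genes down to 0.5 CPM, while the lowest mean of the 40 was 3.34 CPM. The shares therefore do not compare like with like. Summed over the 40 genes, the control libraries held 9264, 9019, 9238 and 8942 CPM, and the CML libraries 9128, 9428, 9304 and 8879 CPM. The lowest sum in each group was that of replicate 4.

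**Figure D3:**
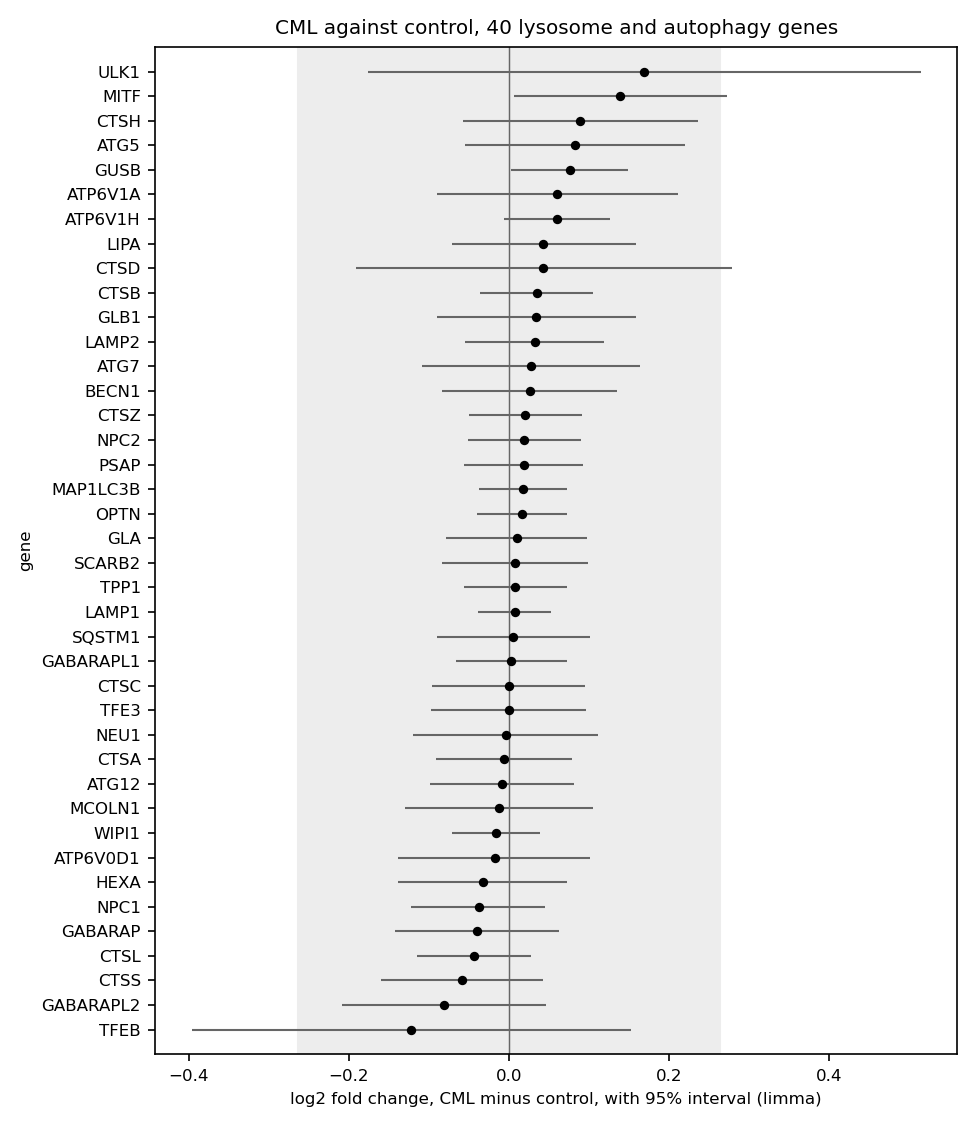
Log2 fold change (CML minus control) of each of the 40 genes with its 95% interval from limma (n = 4 libraries per group). The shaded band marks changes within 20% either way. Intervals of MITF and GUSB lie just above 0, and that of ULK1 is the widest.

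Among the lysosomal membrane proteins, 3 genes were above 0 and 2 below, none of them called. LAMP1, the main glycoprotein of the lysosomal membrane, was at 328, 328, 325 and 313 CPM in control replicates 1 to 4 and at 328, 329, 321 and 321 CPM with CML. The groups overlapped, and the interval of the change ran from -2.66% to 3.72%. LAMP2, which also serves chaperone-mediated autophagy, had means of 236 ± 11.4 and 241 ± 6.23 CPM (SD, n = 4), and SCARB2, the carrier of glucocerebrosidase, 142 ± 7.80 and 142 ± 2.49 CPM. NPC1, which exports cholesterol, had 729 ± 34.1 and 709.8 ± 13.3 CPM, a log2 fold change of -0.038 ± 0.035 (SE). MCOLN1, the calcium channel TRPML1, had 40.1 ± 2.59 and 39.7 ± 1.57 CPM, with whole reads in 6 of the 8 libraries.

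The cathepsins are the proteases of the lysosome, and several are also secreted by tumor cells. Of the 9 genes in this group, 5 were above 0 and 4 below, with a median log2 fold change of 0.008. CTSB, the cysteine protease cathepsin B, was at 291, 277, 298 and 292 CPM in control and 289, 302, 306 and 288 CPM with CML. The pair of highest values came from CML, yet the lowest CML library was below 3 of the controls. Its log2 fold change was 0.035 ± 0.030 (SE), with an interval from -2.44% to 7.55%.

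CTSD was at 1336, 1229.8, 1207 and 1001 CPM in control and at 1253, 1289, 1280.3 and 1082 CPM with CML. Replicate 4 was the lowest library of both groups, and the remaining values overlapped. The log2 fold change was 0.043 ± 0.099 (SE), and turned to -0.039 without control replicate 4 and to 0.102 without CML replicate 4. With both libraries numbered 4 left out it was 0.02 ± 0.044 (SE). CTSD (chr11:1752755-1763927, GRCh38.p14) shares 62.1% of its exon bases with another gene model on the same strand, and whether reads were split between them cannot be told from the table. Its values were whole reads in only 1 of the 8 libraries.

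CTSL, cathepsin L, was at 96.1, 100.3, 102 and 107 CPM in control and 98.2, 98.4, 96.4 and 99.1 CPM with CML. The CML libraries lay close together and within the control range, and the log2 fold change was -0.044 ± 0.030 (SE). CTSS, a cathepsin best known from antigen-presenting cells, was at 68.5, 73.2, 69.7 and 76.8 CPM in control and 67.6, 68.2, 67.6 and 72.9 CPM with CML. The lowest 3 values of all 8 came from CML replicates 1 to 3, and replicate 4 was the highest library in each group. Its log2 fold change was -0.059 ± 0.043 (SE). Without both libraries numbered 4 it was -0.054 ± 0.028 (SE), the remaining 3 and 3 libraries no longer overlapped, and the adjusted p was 0.608 (over all 19 alternatives, 0.308 to 0.951).

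CTSH, an aminopeptidase and the least abundant cathepsin here, was at 16.9, 20.2, 18.6 and 17.8 CPM in control and 18.6, 19.2, 21.0 and 19.5 CPM with CML. The highest value came from CML and the lowest from control, but control replicate 2 was above 3 of the CML libraries. The log2 fold change was 0.089 ± 0.062 (SE), with an interval from -3.91% to 17.8%. The others were nearly level, with log2 fold changes between -0.006 and 0.02. CTSA, which also shields the galactosidase and sialidase, was at 157 ± 5.87 CPM in control and 156 ± 5.75 CPM with CML (SD, n = 4). The dipeptidyl peptidase CTSC was at 127 ± 6.80 and 127 ± 3.30 CPM, and CTSZ at 209 ± 5.98 and 212 ± 6.84 CPM. TPP1, the tripeptidyl peptidase, was at 212 ± 7.32 and 213 ± 4.05 CPM. Its values were whole reads in only 2 of the 8 libraries. Other gene models share 22.1% of the exon bases of TPP1 and 24.1% of those of CTSA.

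**Figure D4:**
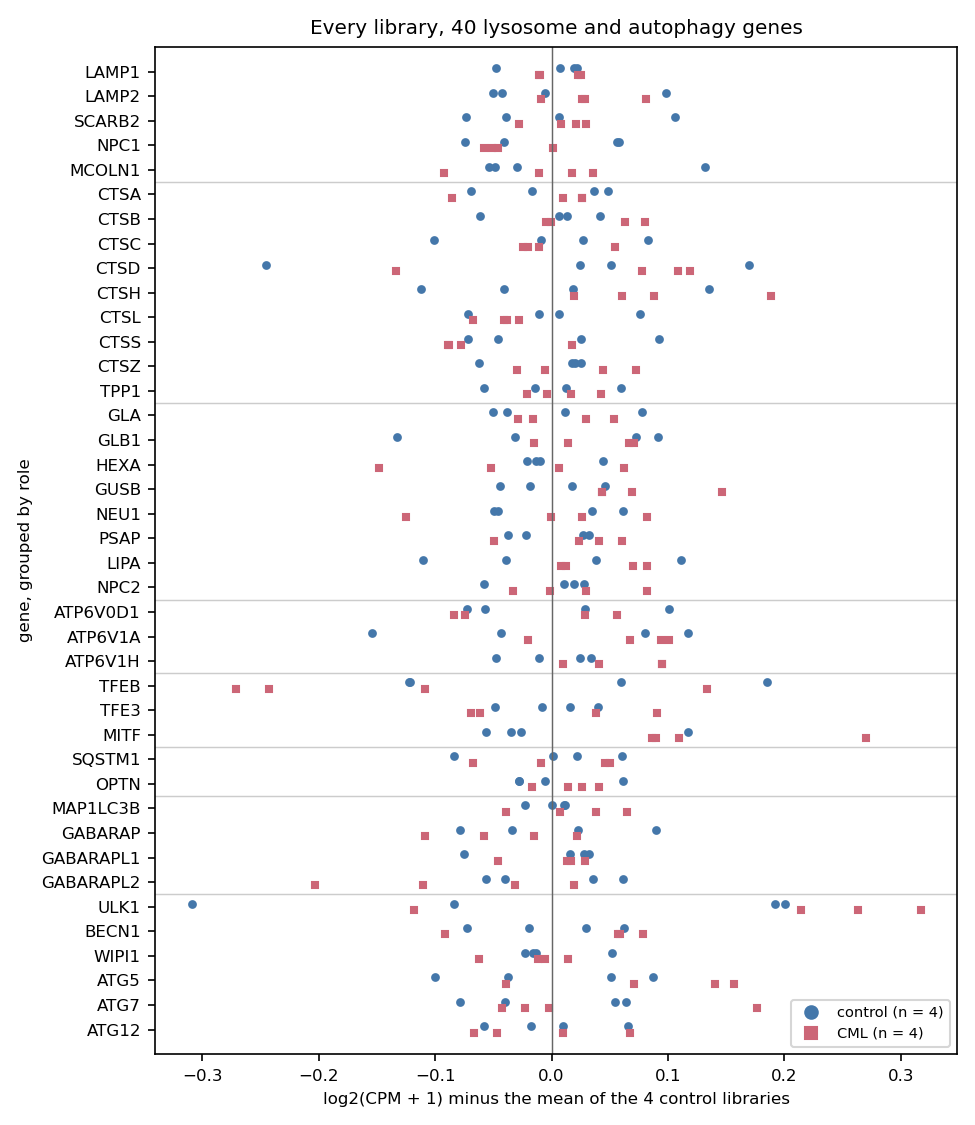
Every library of the 40 genes, as log2(CPM + 1) minus the mean of the 4 control libraries, with control as circles and CML as squares. Horizontal lines separate the roles. The groups overlap in all 40 genes, and the widest spread is in ULK1, TFEB and CTSD.

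Of the 8 glycosidases and lipid-handling proteins, 6 were above 0 and 2 below, with a median log2 fold change of 0.019. GUSB, beta-glucuronidase, which removes glucuronic acid from glycosaminoglycans, was at 48.1, 49.4, 50.4 and 47.2 CPM in control and 54.1, 50.3, 50.3 and 51.2 CPM with CML. Only control replicate 3 reached the CML range. The log2 fold change was 0.076 ± 0.031 (SE), with an interval from 0.197% to 10.8%, an unadjusted p of 0.0437 and an adjusted p of 0.626 (limma). Without both libraries numbered 4 the log2 fold change was 0.063 ± 0.037 (SE), with an adjusted p of 0.657 (limma). Over 19 alternatives the adjusted p ran from 0.569 to 0.833. GUSB lies at chr7:65960684-65982213 (GRCh38.p14).

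PSAP was at 1496 ± 36.0 CPM in control and 1516 ± 49.8 CPM with CML (SD, n = 4). HEXA, the alpha subunit of beta-hexosaminidase, had the lowest log2 fold change of this group, -0.033 ± 0.045 (SE), and LIPA, the lysosomal acid lipase, 0.043 ± 0.048 (SE). Their control means were 109 CPM and 152 CPM. The values of HEXA were whole reads in none of the libraries, and 21.7% of its exon bases are shared with other gene models. GLA and GLB1, the alpha- and beta-galactosidases, NEU1, the sialidase, and NPC2 had log2 fold changes between -0.004 and 0.034. Mean CPM in control and with CML was 20.4 ± 0.875 and 20.5 ± 0.575 for GLA, 103 ± 7.40 and 106 ± 3.09 for GLB1, 197 ± 7.72 and 196 ± 11.8 for NEU1, and 156 ± 4.23 and 158 ± 5.40 for NPC2 (SD, n = 4).

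The V-ATPase was represented by ATP6V0D1, a subunit of the membrane sector, and by ATP6V1A and ATP6V1H of the cytosolic sector. ATP6V1H was at 43.6, 46.2, 44.8 and 45.9 CPM in control and 48.2, 48.2, 45.4 and 46.4 CPM with CML. CML replicates 1, 2 and 4 were above all controls, and CML replicate 3 lay within their range. Its log2 fold change was 0.06 ± 0.028 (SE), with an unadjusted p of 0.0684 and an adjusted p of 0.697 (limma). ATP6V1A had the same log2 fold change of 0.06 with a larger error of 0.064, and ATP6V0D1 had -0.018 ± 0.051 (SE). Mean CPM was 52.1 in control and 54.3 with CML for ATP6V1A, and 102 and 101 for ATP6V0D1.

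The 3 MiT/TFE factors differed far more from each other than between groups. Per kilobase of transcript, TFE3 stood at 35.1 CPM per kb in control, MITF at 6.66 and TFEB at 1.51, and the control libraries of the 3 did not overlap. TFE3 had 115 ± 3.04 CPM in control and 116 ± 6.31 CPM with CML (SD, n = 4). TFEB was at 4.11, 3.13, 3.69 and 3.13 CPM in control and 3.94, 2.73, 2.80 and 3.17 CPM with CML. CML replicates 2 and 3 were the lowest, but CML replicate 1 exceeded 3 of the controls. These values rest on 46 to 69 estimated reads per library, and the interval of the change, from -24.0% to 11.1%, is correspondingly wide.

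MITF (ENSG00000187098.15, chr3:69739464-69968332, GRCh38.p14) was at 31.1, 31.3, 30.7 and 34.7 CPM in control replicates 1 to 4 and at 34.0, 34.5, 33.9 and 38.7 CPM with CML. Replicate 4 was the highest library in each group, and within replicates 1 to 3 every CML value was above every control value. The only overlap was control replicate 4, which exceeded all CML libraries but replicate 4. The log2 fold change was 0.139 ± 0.056 (SE), with an interval from 0.401% to 20.8%, an unadjusted p of 0.043 and an adjusted p of 0.626 (limma). It did not pass.

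The call on MITF changed with the processing. With both libraries numbered 4 left out, a choice made after seeing the data, the log2 fold change was 0.134 ± 0.018 (SE) and the adjusted p 0.182, where 1.82% of all genes passed. Of the 40 genes, 3 then had groups that did not overlap, CTSS, MITF and ULK1 (7.5%), against 15.7% of genes averaging 0.5 CPM or more. Leaving out control replicate 4 alone gave an adjusted p of 0.301, and leaving out CML replicate 4 alone gave 0.721. Over 19 alternatives the adjusted p of MITF ran from 0.182 to 0.804 and was under 0.3 in 4 of them, of which 3 kept all 8 libraries.

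The spread between libraries was also compared after a smooth trend with GC content and length had been subtracted from each library. That trend was fitted to these same values, so a smaller spread over all genes fitted together was built in. The median SD within groups of the 40 genes went from 0.0593 to 0.0471 (log2), and fell in 31 of them. It went from 0.15 to 0.0484 in CTSD, from 0.222 to 0.127 in ULK1 and from 0.0838 to 0.0485 in MITF, but from 0.0445 to 0.0532 in GUSB. After this step MITF was the only gene of the 40 to pass (2.5%, against 6.64% of the 12928 genes fitted), with an adjusted p of 0.286 and a log2 fold change of 0.121 (interval 0.023 to 0.219). NPC1, CTSS and ULK1 had an unadjusted p under 0.05 there without passing. In 2 of the 40, CTSS and MITF, the groups then did not overlap (5.0%, against 7.05% of genes fitted). Whether GC content accounts for the position of the libraries numbered 4 was not tested.

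**Figure D5:**
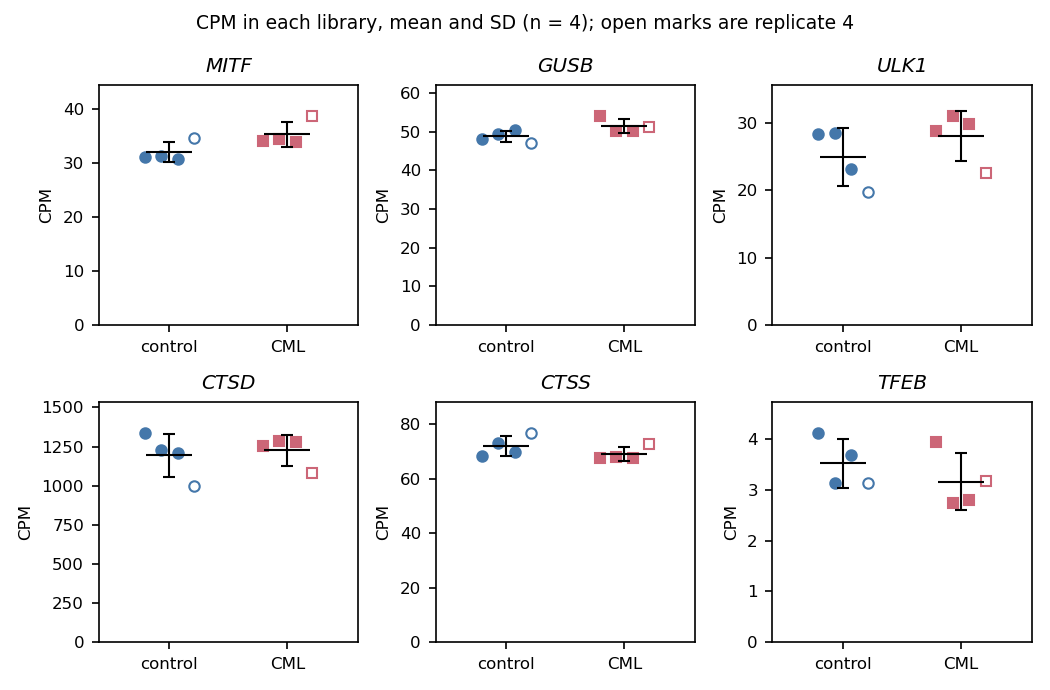
CPM in each library for 6 of the genes, with filled marks for replicates 1 to 3, open marks for replicate 4, and a line and bars for the mean and SD (n = 4 per group). In MITF and CTSS the open mark is the highest of each group, and in ULK1 and CTSD it is the lowest.

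The autophagy receptors hold ubiquitin-tagged cargo against the ATG8 proteins. SQSTM1 was at 1248, 1197, 1214 and 1129 CPM in control and 1189, 1239, 1235 and 1142 CPM with CML, with full overlap and a log2 fold change of 0.005 ± 0.040 (SE). The interval ran from -6.07% to 7.23%. SQSTM1 shares 55.7% of its exon bases with MRNIP on the opposite strand, which itself had a mean of 9.82 CPM. Whether these libraries kept the strand is not given in the sources used here. OPTN, optineurin, had 324 ± 9.65 and 327 ± 5.47 CPM (SD, n = 4).

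Within the ATG8 family, GABARAP stood highest in control at 159 CPM per kb, followed by MAP1LC3B at 128, GABARAPL1 at 39.7 and GABARAPL2 at 31.4. MAP1LC3B, the LC3B whose lipidation is the usual marker of autophagosomes, was at 269, 276, 274 and 276 CPM in control and 275, 286, 266 and 281 CPM with CML. CML gave both the highest and the lowest of the 8 values, and the log2 fold change was 0.018 ± 0.023 (SE). The values of MAP1LC3B were whole reads in only 1 of the 8 libraries. GABARAPL2 was at 29.4, 29.7, 31.4 and 32.0 CPM in control and 29.9, 31.0, 28.3 and 26.4 CPM with CML. CML replicates 3 and 4 were the lowest, and the log2 fold change was -0.081 ± 0.054 (SE). It was -0.041 without CML replicate 4 and -0.02 ± 0.045 (SE) without both libraries numbered 4. GABARAP, of whose exon bases 68.2% are shared with other gene models, had -0.04 ± 0.043 (SE), and GABARAPL1 0.003 ± 0.029 (SE). Mean CPM was 209 in control and 203 with CML for GABARAP, and 74.8 and 74.9 for GABARAPL1.

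Of the 6 genes of autophagosome initiation and conjugation, 4 were above 0 and 2 below, with a median log2 fold change of 0.027. ULK1, the kinase that starts autophagosome formation, was at 28.3, 28.5, 23.2 and 19.7 CPM in control and 28.8, 31.0, 29.8 and 22.6 CPM with CML. Replicate 4 was the lowest of each group, and the other 3 CML libraries were above all controls. The log2 fold change of 0.169 ± 0.146 (SE) was the largest of the 40 and had the widest interval, from -11.5% to 42.8%. It was 0.066 without control replicate 4, 0.265 without CML replicate 4 and 0.162 ± 0.09 (SE) without both, with an adjusted p of 0.636 (limma; 0.178 to 0.979 over 19 alternatives).

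ATG5, which is joined to ATG12 to form the enzyme that lipidates ATG8 proteins, was at 33.0, 36.7, 34.5 and 37.7 CPM in control and 34.4, 39.6, 37.2 and 39.1 CPM with CML. The pair of highest values came from CML and the lowest from control, but CML replicate 1 was below 3 of the controls, with a log2 fold change of 0.082 ± 0.058 (SE). BECN1 (beclin 1), WIPI1, ATG7 and ATG12 had log2 fold changes between -0.016 and 0.027. ATG7 shares 29.9% of its exon bases with VGLL4 on the opposite strand, which had a mean of 53.4 CPM. BECN1 shares 37.7% with CNTD1 and WIPI1 28.3% with ARSG, also on the opposite strand. BECN1 was at 95.1 ± 3.92 CPM in control and 96.9 ± 5.22 CPM with CML, ATG7 at 59.8 ± 2.96 and 61.0 ± 4.48 CPM, and ATG12 at 73.1 ± 2.68 and 72.6 ± 3.10 CPM (SD, n = 4). WIPI1, a reader of phosphatidylinositol phosphates on the forming membrane, was abundant, at 236 ± 5.75 CPM in control and 233 ± 5.23 CPM with CML (SD, n = 4).

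The ratio of some related genes was compared by an exact permutation test over the 70 labellings of the 8 libraries (2-sided, smallest possible p 0.0286), with adjustment over 3 ratios. The log2 ratio of CTSL to CTSB was -1.517 ± 0.0684 in control and -1.596 ± 0.0579 with CML (SD, n = 4), a difference of -0.079 (exact p = 0.143, adjusted p = 0.429). The log2 ratio of GABARAPL1 to GABARAP differed by 0.044 (exact p = 0.371, adjusted p = 0.556), and that of MAP1LC3B to SQSTM1 by 0.013 (exact p = 0.686). The ratios in the groups overlapped in all 3.

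The 40 genes were set beside 175 other genes of the lysosome and autophagy, of which 172 were in the table and 166 averaged 0.5 CPM or more. Of the 166, 83 were above 0 and 83 below, where 57.7% of genes averaging 0.5 CPM or more were above 0. Of the 172, 3 passed the FDR of 0.3 (1.74%, against 0.895% of all genes). SIAE and LAPTM5 were higher and WDR45 lower with CML. The groups did not overlap in 10 of the 166 (6.02%, against 4.26%).

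SIAE, which removes acetyl groups from sialic acid, was at 19.9, 20.5, 19.1 and 20.6 CPM in control and 23.4, 23.2, 23.5 and 22.3 CPM with CML. Every CML library was above every control, and the log2 fold change was 0.198 ± 0.032 (SE) with an adjusted p of 0.165 (limma). LAPTM5, a lysosomal transmembrane protein known mainly from blood cells, was at 64.8, 61.8, 66.8 and 66.5 CPM in control and 71.1, 72.8, 73.3 and 71.8 CPM with CML. The groups were again separate, with an adjusted p of 0.183 (limma) at a log2 fold change of 0.152 ± 0.026 (SE). WDR45, a relative of WIPI1 that binds the same membrane lipids, was at 103, 99.8, 97.2 and 99.2 CPM in control and 91.0, 95.2, 90.7 and 92.2 CPM with CML. It fell by 0.11 ± 0.022 (SE) on the log2 scale, with an adjusted p of 0.258 (limma). These calls changed with the processing. With all 8 libraries kept, 1 alternative ended all 3 calls, and a minimum mean of 1 CPM ended those of SIAE and WDR45. Centring on the library median ended the call of SIAE, and the comparison without moderated variances ended that of WDR45. With 1 library left out, LAPTM5 passed without control replicate 2, 3 or 4 but not without any other library, SIAE without control replicate 3 or 4 or CML replicate 4, and WDR45 only without control replicate 4. Over 19 alternatives the adjusted p ran from 0.114 to 0.435 for SIAE, from 0.0323 to 0.449 for LAPTM5 and from 0.0604 to 0.505 for WDR45, and it was under 0.3 in 11, 13 and 8 of them.

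By list, none of the 19 measured V-ATPase subunits outside the 40 passed, and 13 of them were below 0 (median -0.012). Of 35 further hydrolases, 1 passed and 20 were below 0 (median -0.007), and of 19 further membrane proteins 1 passed and 8 were below 0 (median 0.005). The 15 genes that deliver enzymes to the lysosome had a median of -0.013, the 28 further genes of autophagosome formation one of 0.006, and the 12 further receptors one of 0.036. The 13 genes of autophagosome and endosome fusion with the lysosome had a median of -0.001. The 19 genes that control MiT/TFE factors through mTORC1, Rag GTPases and folliculin had a median of -0.005 and none passed. The largest median was that of the 6 cystatins, inhibitors of the cathepsins, at 0.101, again with none past the FDR. Of the 6, 4 were above 0 and 2 below, with values from -0.152 to 0.203. CST4 had 83.3 ± 5.08 and 93.1 ± 4.85 CPM (SD, n = 4), and CST2 14.3 ± 1.40 and 16.6 ± 1.38 CPM. These cystatins are close copies of each other, so that reads may have been divided between them.

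The 2 genes with the smallest p in each of these lists, apart from those described above, did not pass. Among V-ATPase subunits, ATP6V0A1 was lower in all CML libraries than in any control, with means of 165 CPM in control and 156 CPM with CML (log2 fold change -0.078), and ATP6V1E1 had a log2 fold change of 0.059. GM2A, the activator of ganglioside breakdown, had -0.114, and TPCN2, a lysosomal cation channel, 0.119 with groups that did not overlap. The sorting and transport genes CLN8 and VPS29 had -0.158 and -0.064, with groups that did not overlap in either. PIK3R4, a subunit of the kinase complex that acts with beclin 1, had 0.097 and likewise separate groups. Among receptors, FUNDC1, which acts in mitophagy, went from 6.80 ± 0.635 to 8.33 ± 0.304 CPM with separate groups and an adjusted p of 0.39 (limma), and NCOA4, the ferritin receptor, had 0.064. TSC1, which restrains mTORC1, had a log2 fold change of -0.094 and ZKSCAN3, a repressor of autophagy genes, 0.148. The fusion genes EPG5 and VAMP7 had 0.071 and 0.036.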

How the data were processed

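RNA-Seq libraries of 4 control and 4 CML-exposed MDA-MB-231 samples were analysed. The authors deposited CPM values, which were tested on their sums and steps and are scaled per library; the submitters' notes name edgeR and build hg38, and the aligner, counter and annotation of this experiment are not given in the sources used here. Only 85.1% to 86.1% of values were whole reads (tolerance 0.02), so no count test was run. The numbers of libraries with whole reads given for single genes used a tolerance of 0.05. The 32 symbols with more than 1 of the 17681 rows were averaged. Tests used limma 3.58.1 (R 4.3.3) on log2(CPM + 1), with a variance trend and Benjamini-Hochberg adjustment over 17649 genes, at the FDR of 0.3 used for this experiment and at 0.05. Fold changes are on that scale and understate the change of low genes. Transcript length, GC content and exon overlap came from GENCODE on GRCh37, and positions and promoters from RefSeq on GRCh38.p14. The 40 genes and all lists were chosen with earlier results of these data known. All 40 genes are accounted for, all 8 values are given for those a rule selected (the 10 smallest p, any with an adjusted p under 0.3 or separate groups, and LAMP1, CTSD, TFEB, SQSTM1 and MAP1LC3B), and in each other list the 2 genes with the smallest p were taken for naming. Scripts were tested on simulated data. Precision is limited by 4 libraries per group; the counting error is largest for TFEB.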

Additional observations from a re-analysis of the deposited data

Results flagged for a closer look

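In 124 groups of 4 values, the highest or lowest library was tested for its distance from the other 3 by Dixon's ratio, and 12 stood out, where chance at 1 in 20 gives 6.2. Of these, 8 were libraries numbered 4. MITF was at 34.7 CPM in control replicate 4 and at 38.7 CPM in CML replicate 4, above the other libraries of each group. WIPI1 at 244 CPM and HEXA at 113 CPM were high in control replicate 4, and CTSZ was low there at 200.1 CPM. CTSS was high in CML replicate 4 at 72.9 CPM, and CTSA was low there at 148 CPM. Away from replicate 4, MCOLN1 was high in control replicate 1 at 43.9 CPM, CTSC high in CML replicate 2 at 132 CPM, GABARAPL1 low in control replicate 3 at 70.9 CPM and BECN1 low in CML replicate 1 at 89.2 CPM. The estimated reads of control replicate 4, 17729519, were above the 16559915 to 16690411 of the other control libraries, while the depth did not differ detectably between groups (log2 difference 0.027, exact permutation p = 0.714).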

How the results depend on the processing

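Of 1102 single-gene values under alternatives, 981 kept their direction and their side of the FDR of 0.3, 25 no longer passed, 25 newly passed and 71 changed sign. The sign changed in 22 of the 40 genes, of which none had a log2 fold change beyond 0.0432 in size. No alternative that kept all libraries and left GC content and the replicate number out of the fit called any of the 40. The cause of the changes below was not tested. Without moderated variances 97 genes passed, and with a minimum mean of 1 CPM 1 other pathway gene passed. After removal of GC content and length, 859 genes passed (6.64% of those fitted), with 1 of the 40 (MITF, 2.5%) and 15 other pathway genes (9.26%). In 2 of the 40, CTSS and MITF, the groups then did not overlap (5.0%, against 7.05% of genes fitted). With both libraries numbered 4 left out, an alternative chosen after seeing the data, 321 genes (1.82%) and 1 of the 40 (MITF) passed. The log2 fold changes of LAMP1 (-0.0036), CTSA (0.0151), CTSC (0.0308), NEU1 (0.0192) and TFE3 (0.0063) then changed sign. Centring on the library median turned LAMP1 to -0.002, SCARB2 to -0.0013, TPP1 to -0.0005, SQSTM1 to -0.0037 and GABARAPL1 to -0.0056. Quantile normalization turned LAMP1 to -0.028, SCARB2 to -0.0194, TPP1 to -0.0125, GLA to -0.0032, SQSTM1 to -0.0217, OPTN to -0.0199, MAP1LC3B to -0.0131 and GABARAPL1 to -0.0101. Removal of GC content and length turned SCARB2 to -0.0087, SQSTM1 to -0.0008, MAP1LC3B to -0.0001 and GABARAPL1 to -0.0063, with and without the replicate block.

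Leaving out 1 library at a time gave between 20 genes past the FDR (without CML replicate 2) and 690 (without control replicate 4). Without control replicates 1, 2 and 3 there were 91, 45 and 72, and without CML replicates 1, 3 and 4 there were 76, 44 and 105. Of the 40 genes 0 passed in each case, between 0 and 10 other pathway genes passed, and the groups of 0 to 2 of the 40 (0.0% to 5.0%) did not overlap, against 6.51% to 11.1% of genes averaging 0.5 CPM or more. The log2 fold changes that changed sign ranged from -0.0169 to 0.0429 in SCARB2, -0.0304 to 0.0314 in MCOLN1, -0.0289 to 0.0206 in CTSA, -0.011 to 0.0284 in TPP1, -0.0333 to 0.0358 in NEU1, -0.0307 to 0.0225 in TFE3, -0.0103 to 0.0646 in GLB1, -0.0345 to 0.0129 in ATG12, -0.0339 to 0.0274 in CTSC, -0.0074 to 0.0354 in GLA, -0.0432 to 0.0154 in ATP6V0D1, -0.0218 to 0.0196 in GABARAPL1, -0.0092 to 0.0141 in LAMP1, -0.0386 to 0.1022 in CTSD, -0.0003 to 0.0371 in CTSZ, -0.0227 to 0.0292 in SQSTM1, -0.0265 to 0.0009 in WIPI1, -0.0646 to 0.0056 in HEXA, -0.0226 to 0.0504 in ATG7 and -0.0013 to 0.0368 in NPC2. The difference in estimated depth ranged from -0.019 to 0.057 and that in the MAP1LC3B to SQSTM1 ratio from -0.018 to 0.046.

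The replicate numbers do not pair the libraries by the labels, and the deviations of same-numbered libraries from their group means correlated at 0.199, -0.0303, -0.0645 and 0.334 for numbers 1 to 4 over 13047 genes. Numbers 1 and 4 correlated best with their own number and 2 and 3 did not. With the replicate block, 189 of 17649 genes passed, with 1 of the 40 (MITF, adjusted p = 0.252, limma) and 0 other pathway genes. The adjusted p was then 0.356 for SIAE, 0.315 for LAPTM5 and 0.343 for WDR45 (limma). With the block and the removal of GC content and length, 902 of the 12928 genes fitted passed. Among them were 2 of the 40 (MITF and ULK1) and 15 of 162 other pathway genes.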

Other observations

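After GC content and length were removed, 15 of 162 other lysosome and autophagy genes passed the FDR of 0.3 (9.26%, against 6.64% of all genes fitted, limma). Among them were 3 secreted cystatins, CST1, CST2 and CST4, with log2 fold changes of 0.168, 0.208 and 0.163 and adjusted p of 0.0245, 0.2 and 0.00966. In the uncorrected comparison none of the 3 passed, and over 19 alternatives the adjusted p ran from 0.0084 to 0.865 for CST1, 0.2 to 0.83 for CST2 and 0.00966 to 0.747 for CST4. CST1 was the most abundant, with means of 273 CPM in control and 306 CPM with CML. IGF2R, the mannose 6-phosphate receptor that carries new hydrolases to the lysosome, was lower, at 432 and 408 CPM (log2 fold change -0.087, adjusted p = 0.0602, over 19 alternatives 0.0602 to 0.813). ASAH1, acid ceramidase, TPCN1, a lysosomal cation channel, and ATP6V0A1 were lower as well, and FUNDC1, a receptor of mitophagy, was higher. Of 19 alternatives, the adjusted p (limma) was under 0.3 in 1 for ASAH1, 2 each for TPCN1 and ATP6V0A1, and 3 for FUNDC1. These genes were named after their values were seen.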
